A study of Homo sapiens with 11 samples.

Results

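Solute carriers (SLCs) are membrane proteins that move nutrients, ions, vitamins and metabolites across the plasma membrane and the membranes of organelles. RNA levels of 114 SLC genes were described here in MDA-MB-231, a human breast cancer cell line established from a pleural effusion, after knockdown of BCL11A, of MBNL1 or of both. The members were the gene symbols written as SLC, a family number, the letter A and a member number. The table of 8085 genes held 116 such symbols, and 2 of them were left out by the rule that defined the set. Scaffold proteins such as SLC9A3R2 do not have such a symbol and were not counted as transporters.

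Total RNA was sequenced 48 h after transfection of this 1 line, grown in serum-containing medium. The control cells received non-targeting siRNA at 100 nM (siNS, n = 2 libraries). The other cells received an siRNA pool against BCL11A at 100 nM (siBCL11A, n = 3), a pool against MBNL1 at 100 nM (siMBNL1, n = 3), or both pools at 50 nM each (siB/siM, n = 3). The labels do not say whether the libraries of a group came from separate cultures, so the spread behind the p-values is that of libraries and could be technical.

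Many SLC proteins work by exchange or by coupling to an ion gradient, so that 1 family often sets the direction in which a substrate moves. SLC3A2 is the heavy chain that pairs with light chains such as SLC7A5, the importer of large neutral amino acids, and SLC7A11, the cystine importer. SLC16 carriers move lactate and related acids, most SLC25 carriers serve the inner mitochondrial membrane, and SLC39 and SLC30 proteins bring zinc into and out of the cytosol. In breast cancer cells the glucose carrier SLC2A1 and the lactate exporter SLC16A3 are known for their part in glycolytic growth. BCL11A is a zinc finger repressor best known for silencing fetal globin genes through the word TGACCA. MBNL1 is a splicing regulator that binds RNA at GC steps flanked by a pyrimidine on each side.

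Values are RPKM, reads scaled to gene length and library size. The table gives a group's values only for genes that passed the authors' own test of that knockdown against siNS, so a member without values in a group was not listed there, and nothing about its change can be read from that. Values against siNS were present for 80 members in siBCL11A, 66 in siMBNL1 and 92 in siB/siM, and 48 members had values in all 4 groups. The effective library sizes behind the RPKM scale were 20.05 to 34.91 mega-reads. MBNL1 itself stood at 10.2 and 9.77 RPKM in siNS, 27.7, 27.5 and 27.6 in siBCL11A, 3.17, 3.52 and 2.55 in siMBNL1, and 3.53, 3.65 and 3.56 in siB/siM. MBNL1 was thus low in both groups that received its pool and high in siBCL11A, where its log2 difference from siNS was 1.38 ± 0.083 (SE). BCL11A had no values, so the depth of its knockdown was not analysed here. Of 6 genes that mark the line, 5 were listed, among them VIM at a mean of 917.1 RPKM in siNS, and AXL had no values. ESR1, PGR and CDH1, which the line is known to lack, also had none, but a gene without values may still be expressed. Of 4 immune markers, CD14, CSF1R and CD68 had values and PTPRC had none. Their summed level was 60.6 to 62.4 RPKM in siNS, 27.8 to 31.5 in siBCL11A, 33.4 to 38.8 in siMBNL1 and 26.7 to 28.3 in siB/siM, and CD68 made up most of it.

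Differences are given as differences of group means of log2(RPKM + 1) with their SE, knockdown minus siNS. They were tested with limma, and a gene was called at a Benjamini-Hochberg adjusted p under 0.05. Adding 1 to the RPKM makes the differences of low genes smaller than their ratios. All 3 comparisons with siNS share its 2 libraries.

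Exons of 2 members stood in the authors' lists of cassette exons that respond to knockdown, and their sequences are shown because these lists are where the data bear on splicing of members. SLC37A2 encodes a sugar-phosphate exchanger of the endoplasmic reticulum. Its exon at chr11:124954130-124954215 on the plus strand of hg19 was among the 107 exons of the siBCL11A list, with an inclusion of 0.818 in siNS and 0.935 in siBCL11A. SLC38A2 encodes a sodium-coupled importer of neutral amino acids. Its exon at chr12:46764295-46764410 on the minus strand was in the siBCL11A list and among the 110 exons of the siMBNL1 list. Inclusion of the SLC38A2 exon was 0.859 in siNS, 0.736 in siBCL11A and 0.755 in siMBNL1, lower in both knockdowns. The list for siB/siM held 146 exons and no exon of a member. Each inclusion value is the authors' single value for a group, so no spread can be given, and the depth behind it is unknown. In every group listed the exon was included more often than it was skipped, and the differences of 0.118, -0.124 and -0.104 were all under 0.2.
SLC37A2 exon, GENCODE v29, chr11:125084234-125084319 (+, GRCh38): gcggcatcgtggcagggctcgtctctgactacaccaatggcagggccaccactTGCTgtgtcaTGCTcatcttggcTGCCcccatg
SLC38A2 exon, GENCODE v29, chr12:46370512-46370627 (-, GRCh38): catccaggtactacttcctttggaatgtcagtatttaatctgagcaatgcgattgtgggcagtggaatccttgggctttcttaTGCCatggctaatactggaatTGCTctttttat

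These sequences run 5′ to 3′ on the gene's strand, and capitals mark each GC with a C or T on both sides, the MBNL1-type word, searched on that strand alone. They were read from the exon of the same gene with the same length and the same flanking intron lengths in the GENCODE annotation, not by converting coordinates. The SLC37A2 exon has 86 bases and 3 such words, a number reached by 15.4% of 1555 annotated exons of that length. The SLC38A2 exon has 116 bases and 2 words, a number reached by 49.1% of 1636 exons of its length. Both lengths leave a remainder of 2 bases after whole codons. The SLC37A2 exon was coding throughout in both annotated transcripts that contain it, and 3 transcripts skip it. The SLC38A2 exon was coding in 1 transcript and part of a noncoding transcript in another, and 2 transcripts skip it. A word is a description of the letters and not a binding site.

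Promoters were matched for 92 members from the RefSeq table for GRCh38.p14. The word TGACCA, on either strand, was present in the 250 bases before the start of 7 of these 92 members (7.61%), beside 9.5% of all 27305 promoters. Among members called higher in siBCL11A, 4 of 20 with a promoter held it (SLC35A1, SLC37A4, SLC46A1 and SLC25A17), and among those called lower, 1 of 34 (SLC7A7). In siMBNL1 it was 3 of 14 higher and 2 of 32 lower members, and in siB/siM 4 of 31 and 1 of 27. No test was run on these counts. The composite word TGATGNAA, the kind of site that ATF4 and its C/EBP partners read, was in 3.26% of member promoters and 3.19% of all promoters. It was in 0 of 20 promoters of higher and 1 of 34 of lower members in siBCL11A. In siMBNL1 these counts were 0 of 14 and 2 of 32, and in siB/siM 0 of 31 and 2 of 27. At so low a share in all promoters, counts this small cannot be read either way, and they were not tested. The promoters of SLC35A1 and SLC37A4, which rose in every knockdown, and of SLC7A7, which fell most on the log2(RPKM + 1) scale, are printed with TGACCA in capitals. They were chosen after their values were seen.
SLC35A1, chr6:87472724-87472973 (+): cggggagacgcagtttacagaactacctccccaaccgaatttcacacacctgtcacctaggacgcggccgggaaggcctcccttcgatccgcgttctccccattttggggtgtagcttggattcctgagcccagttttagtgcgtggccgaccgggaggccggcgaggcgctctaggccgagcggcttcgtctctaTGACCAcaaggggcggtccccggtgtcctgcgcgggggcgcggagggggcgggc
SLC37A4, chr11:119030878-119031127 (-): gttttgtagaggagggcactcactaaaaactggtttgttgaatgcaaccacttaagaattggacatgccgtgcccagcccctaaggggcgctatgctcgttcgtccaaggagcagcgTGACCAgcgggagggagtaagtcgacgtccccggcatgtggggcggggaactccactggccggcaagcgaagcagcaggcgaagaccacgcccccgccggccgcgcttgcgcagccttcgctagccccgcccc
SLC7A7, chr14:22819792-22820041 (-): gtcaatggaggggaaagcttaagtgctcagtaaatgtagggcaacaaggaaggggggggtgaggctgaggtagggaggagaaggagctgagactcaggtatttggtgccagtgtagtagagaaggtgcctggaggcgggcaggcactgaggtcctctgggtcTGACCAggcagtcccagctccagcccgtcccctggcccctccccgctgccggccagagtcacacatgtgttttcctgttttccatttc

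In control cells the members spanned a wide range of levels, from a mean of 0.676 RPKM for the drug and cation extruder SLC47A1 to 213.6 RPKM for SLC25A5, the mitochondrial ADP/ATP carrier, whose many processed copies may share its reads. The median member stood at 6.02 RPKM, 51 were under 5 RPKM and 10 were at 50 RPKM or more. After SLC25A5 came SLC2A1 at 201.6 RPKM, the mitochondrial phosphate carrier SLC25A3 at 199.0, SLC16A3 at 93.4, SLC7A5 at 86.9 and SLC3A2 at 82.4. Glucose uptake, lactate export, large neutral amino acid exchange and mitochondrial nucleotide exchange thus supplied the most abundant RNAs per length among the listed members. SLC25A5, SLC2A1 and SLC25A3 lay within 208.9 to 218.4, 193.7 to 209.5 and 195.6 to 202.4 RPKM in the 2 siNS libraries. The range of SLC2A1 thus overlapped those of both others. SLC25A5 lay above SLC2A1 and SLC25A3 in both libraries, while the order of SLC2A1 and SLC25A3 differed between the libraries.

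Each knockdown moved transporters in both directions, and more of the listed members fell than rose after either single knockdown. In siBCL11A, 26 of 80 members with values were called higher (32.5%) and 45 lower (56.2%), where 42.3% of all genes with values were called higher and 46.9% lower. Either way 71 of 80 were called, beside 89.2% of all genes. In siMBNL1, 19 of 66 were higher (28.8%) and 42 lower (63.6%), beside 45.2% and 49.1% of all genes, and 61 of 66 either way, beside 94.3%. In siB/siM, 40 of 92 were higher (43.5%) and 38 lower (41.3%), beside 51.3% and 35.5% of all genes, and 78 of 92 either way, beside 86.9%. The median member differed from siNS by -0.37 in siBCL11A, -0.38 in siMBNL1 and -0.15 in siB/siM on the log2 scale, and the median of all genes with values by -0.22, -0.25 and 0.24. These lists were selected by the authors' test against the same 2 siNS libraries, so the high share of calls is a property of the table. Of the 48 members with values in all 4 groups, 12 were called higher and 31 lower in every knockdown. SLC16A3, SLC22A4, SLC25A32, SLC38A2 and SLC39A1 missed a call in at least 1. All genes with values in all 4 groups were not counted in this way, so these numbers cannot be read as particular to transporters. The 3 comparisons share the siNS libraries. Of the 26 higher and 45 lower calls in siBCL11A, 21 and 38 were also made in each fit that left out 1 library, as were 12 of 19 and 28 of 42 in siMBNL1 and 29 of 40 and 30 of 38 in siB/siM. The median SD of a member between libraries of 1 group was 0.054 to 0.096 on the log2 scale. Under quantile normalization the siB/siM counts were 31 higher and 44 lower. Changes of 1 or more on the log2 scale were few: 1 rise and 4 falls in siBCL11A, 4 falls in siMBNL1, and 1 rise and 4 falls in siB/siM. By the ratio of mean RPKM, with nothing added, more called members differed at least 2-fold: 4 higher and 13 lower in siBCL11A, 2 and 9 in siMBNL1, and 3 and 12 in siB/siM. The shares of all genes with changes of these sizes were not worked out. No substrate group or gene list was tested.

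**Figure D1:**
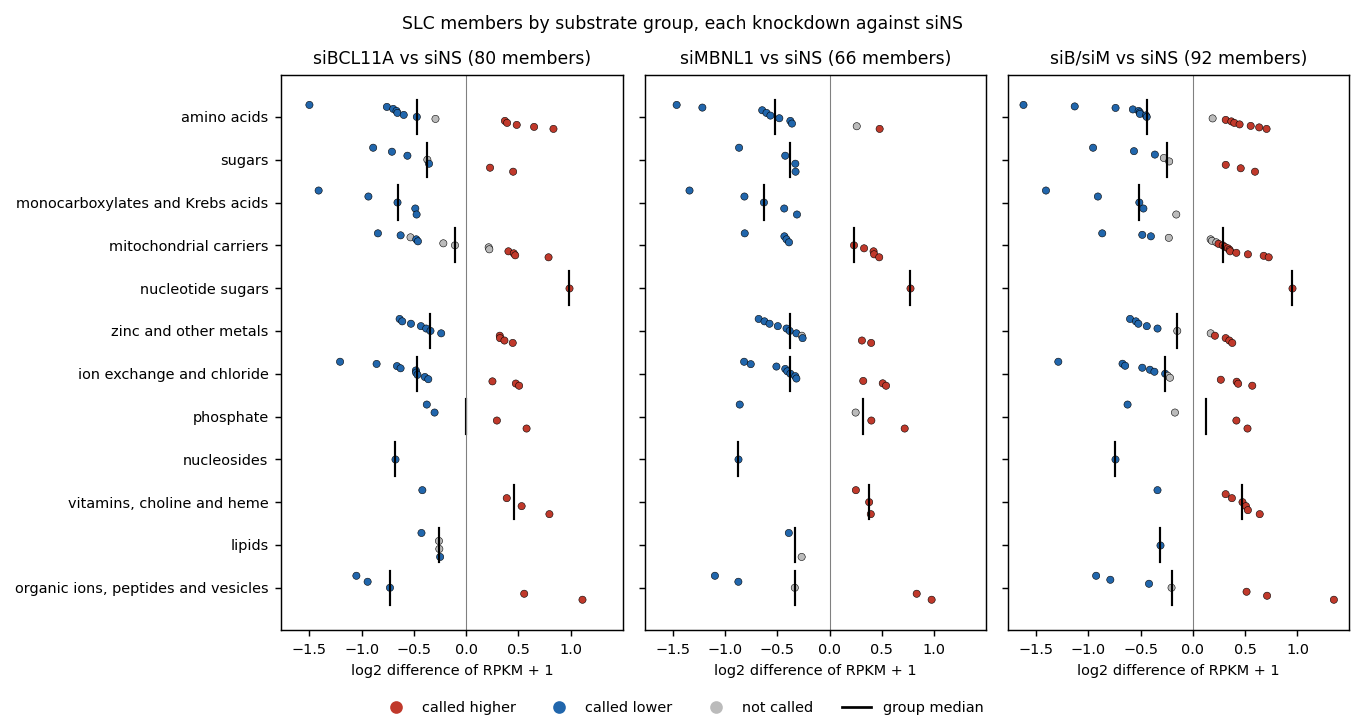
Log2 difference of RPKM + 1 from siNS (x axis) for every SLC member with values, in rows by substrate group, with 1 panel per knockdown; red and blue points were called higher and lower, grey points were not called, and a black line marks the group's median. The 5 monocarboxylate family members lie left of 0 in every panel, and most vitamin, choline and heme transporters lie to its right.

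Amino acid transporters held the member with the largest fall on the log2(RPKM + 1) scale. SLC7A7, a light chain that pairs with SLC3A2 to exchange cationic for neutral amino acids, stood at 4.06 and 4.56 RPKM in siNS, 1.05, 0.623 and 0.992 in siBCL11A, 0.889, 1.06 and 0.833 in siMBNL1, and 0.884, 0.715 and 0.592 in siB/siM. Every knockdown library was far below both control libraries. The log2 difference was -1.50 ± 0.10 in siBCL11A, -1.46 ± 0.10 in siMBNL1 and -1.62 ± 0.10 in siB/siM (limma, adjusted p = 7.66e-07, 1.47e-06 and 4.43e-07). SLC7A2 and SLC7A1, importers of cationic amino acids, were also among the listed members. SLC7A2 stood at 2.64 and 2.27 RPKM in siNS, 5.198, 5.14 and 5.12 in siBCL11A, 3.97, 4.202 and 3.305 in siMBNL1, and 4.53, 4.05 and 4.504 in siB/siM, above control in every knockdown library and highest in siBCL11A, where it rose by 0.83 ± 0.082. SLC7A1, the widely expressed arginine and lysine importer, stood at 19.7 and 19.03 RPKM in siNS, 30.4, 32.7 and 29.8 in siBCL11A, and 24.4, 26.3 and 26.8 in siB/siM. It rose by 0.65 ± 0.066 in siBCL11A and by 0.40 ± 0.066 in siB/siM, and it was not listed for siMBNL1.

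The SLC3A2 and SLC7A5 heterodimer, which brings leucine and other large neutral amino acids into the cell in exchange for glutamine, rose as a pair. SLC3A2 stood at 83.1 and 81.8 RPKM in siNS, 109.9, 116 and 121 in siBCL11A, and 132, 133 and 140.4 in siB/siM, and SLC7A5 at 86.3 and 87.5 RPKM in siNS, 109, 116 and 118 in siBCL11A, and 116, 132 and 137 in siB/siM. For both genes every knockdown library was above both siNS libraries. SLC3A2 rose by 0.48 ± 0.063 in siBCL11A and 0.70 ± 0.063 in siB/siM, and SLC7A5 by 0.39 ± 0.078 and 0.55 ± 0.078. The third chain of this set moved the other way: SLC7A11, which imports cystine for glutathione synthesis, stood at 6.19 and 6.41 RPKM in siNS, 4.06, 3.68 and 3.74 in siBCL11A, and 4.06, 3.92 and 3.74 in siB/siM and fell by 0.60 ± 0.061 and 0.57 ± 0.061. None of these 3 genes was listed for siMBNL1.

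Sodium-coupled importers of neutral amino acids differed among themselves. SLC38A4 stood at 5.67 and 5.49 RPKM in siNS, 2.95, 2.75 and 2.98 in siBCL11A, 1.98, 1.95 and 1.58 in siMBNL1, and 1.73, 2.05 and 2.27 in siB/siM. It was lowest in the groups that received the MBNL1 pool, with falls of 0.76, 1.22 and 1.13 in siBCL11A, siMBNL1 and siB/siM. SLC38A1, a glutamine importer, rose by 0.37 ± 0.062 in siBCL11A. SLC38A2, the gene with the less included exon, stood at 51.1 and 51.1 RPKM in siNS, 42.6, 40.5 and 41.5 in siBCL11A, 40.2, 45.7 and 33.8 in siMBNL1, and 40.7, 36.7 and 34.96 in siB/siM. It fell by 0.36 ± 0.10 in siMBNL1 and 0.44 ± 0.10 in siB/siM, while its difference in siBCL11A was -0.29 (limma, adjusted p = 0.0677). The fall in siMBNL1 was not called when either siNS library, or siMBNL1 library 1 or 3, was left out (adjusted p from 0.0542 to 0.135). Glutamate carriers SLC1A1 and SLC1A3, the glycine carrier SLC6A9 and the taurine carrier SLC6A6 were lower in every group where they had values, with called differences between -0.37 and -0.74. The siMBNL1 calls of SLC1A1 and SLC6A9 were lost without siNS library 2 and siNS library 1 (adjusted p = 0.0763 and 0.0655). Of 18 amino acid members, 5 were called higher and 7 lower of 13 in siBCL11A, 1 and 8 of 10 in siMBNL1, and 7 and 9 of 17 in siB/siM. The shares of all genes were 42.3% and 46.9%, 45.2% and 49.1%, and 51.3% and 35.5%.

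**Figure D2:**
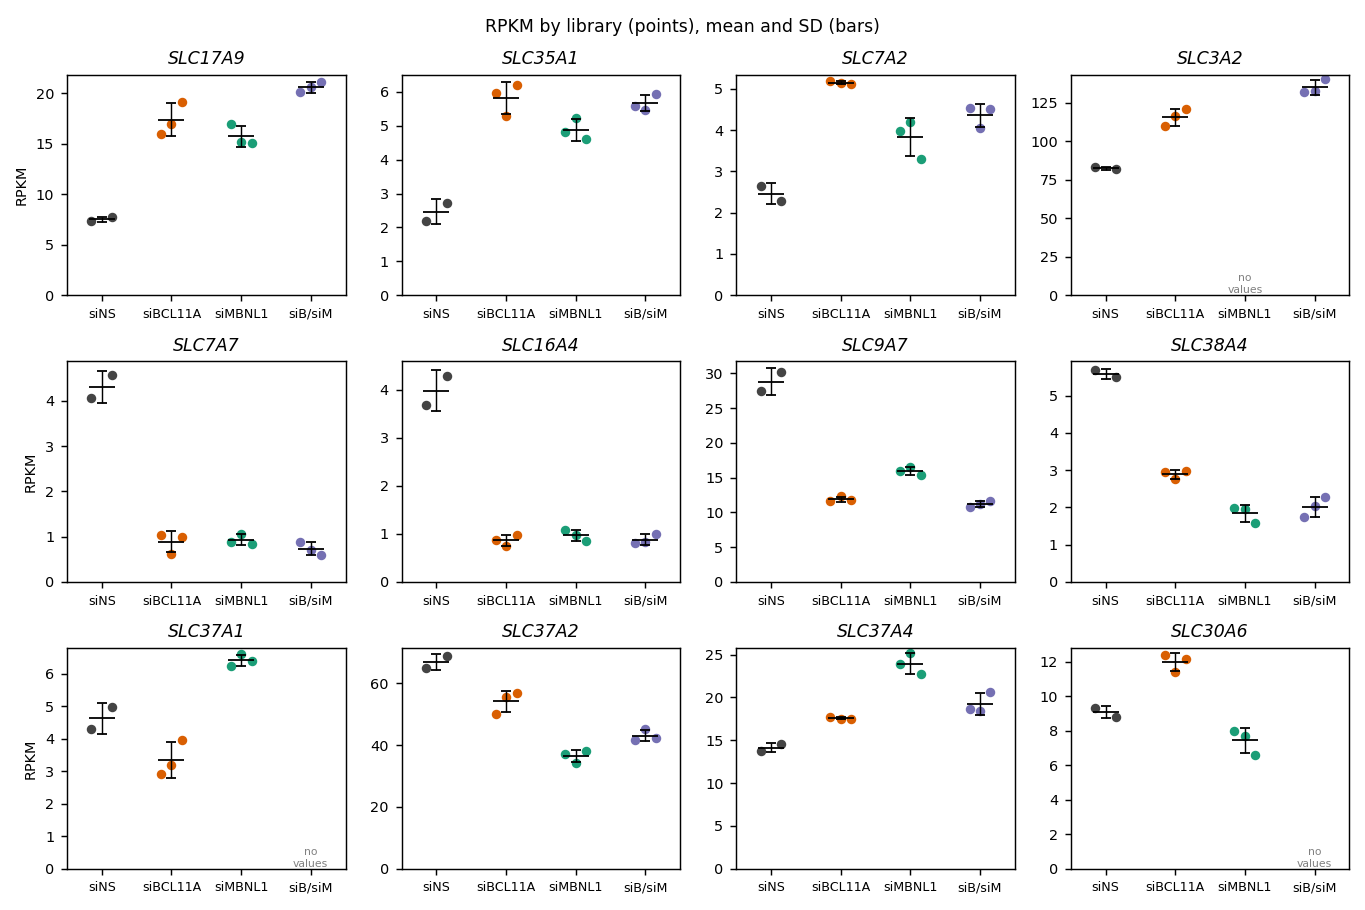
RPKM (y axis, from 0) of 12 SLC members in each library (points) of the 4 groups, with the group mean and SD as bars. SLC17A9, SLC35A1 and SLC7A2 are above siNS in every knockdown library, SLC7A7, SLC16A4, SLC9A7 and SLC38A4 are below it, and SLC37A1 and SLC30A6 lie on opposite sides of siNS in siBCL11A and siMBNL1.

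Carriers of lactate and related acids were mostly called lower. All 5 SLC16 members with values were called lower in siBCL11A and in siMBNL1, and 4 of 5 in siB/siM, with medians of -0.66, -0.63 and -0.51, where 46.9%, 49.1% and 35.5% of all genes were lower. SLC16A4, a family member whose substrates are less well known, stood at 3.67 and 4.28 RPKM in siNS, 0.873, 0.755 and 0.985 in siBCL11A, 1.08, 0.974 and 0.848 in siMBNL1, and 0.8002, 0.831 and 1.003 in siB/siM. The siNS libraries were both above 3.6 RPKM and no knockdown library passed 1.1 RPKM, a difference of -1.41 ± 0.080, -1.34 ± 0.080 and -1.41 ± 0.080. SLC16A3, the main lactate exporter of glycolytic cells, stood at 92.2 and 94.5 RPKM in siNS, 60.6, 64.5 and 74.6 in siBCL11A, 78.5, 67.6 and 79.6 in siMBNL1, and 80.4, 82.8 and 87.5 in siB/siM. Its siB/siM libraries were closest to control, at a difference of -0.16 ± 0.092 (limma, adjusted p = 0.376), against -0.49 ± 0.092 in siBCL11A and -0.31 ± 0.092 in siMBNL1. The siMBNL1 call for SLC16A3 was lost without either siNS library or without siMBNL1 library 2 (adjusted p from 0.112 to 0.188), and under median centring (adjusted p = 0.0683). SLC16A7, a pyruvate and lactate importer, and SLC16A5 fell in every knockdown, by 0.43 to 0.66, and the siB/siM call for SLC16A5 was lost without siNS library 2 (adjusted p = 0.114).

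Sugar transporters included the abundant glucose carrier SLC2A1, at 194 and 209 RPKM in siNS, 130, 136 and 143 in siBCL11A, 165, 153 and 164 in siMBNL1, and 145, 158 and 166 in siB/siM. All 9 knockdown libraries were below both siNS libraries, and the log2 difference was -0.56 ± 0.072, -0.33 ± 0.072 and -0.36 ± 0.072. The siMBNL1 call for SLC2A1 was lost without siNS library 2 (adjusted p = 0.081) and under quantile normalization, where the difference was -0.165 (adjusted p = 0.166). The fructose carrier SLC2A5 was near 1 RPKM in siNS, at 1.19 and 0.954 RPKM in siNS, 0.0694, 0.171 and 0.113 in siBCL11A, 0.134, 0.179 and 0.0961 in siMBNL1, and 0.0622, 0.114 and 0.0288 in siB/siM, and it fell by 0.89, 0.87 and 0.95. By the ratio of mean RPKM it was 9.12-fold, 7.86-fold and 15.7-fold lower, and SLC7A7 4.86-fold, 4.65-fold and 5.903-fold. The knockdown values of SLC2A5 ran from 0.0288 to 0.179 RPKM, far under 1 RPKM, so its ratios are imprecise. SLC45A4, a relative of the proton-coupled sugar carriers, stood at 1.703 and 1.97 RPKM in siNS, 0.651, 0.742 and 0.804 in siBCL11A, 1.49, 1.04 and 1.28 in siMBNL1, and 0.865, 0.915 and 0.96995 in siB/siM. Its fall was 0.71 ± 0.081 in siBCL11A, 0.56 ± 0.081 in siB/siM and 0.33 ± 0.081 in siMBNL1, the last not called without siNS library 2 (adjusted p = 0.16). Rises were seen for SLC5A10, a kidney-type sodium and sugar cotransporter, at 2.25 and 2.41 RPKM in siNS, 3.55, 3.16 and 3.94 in siBCL11A, and 3.37, 3.88 and 3.47 in siB/siM, and for SLC2A8, an intracellular glucose carrier, at 4.06 and 5.26 RPKM in siNS and 6.904, 7.198 and 8.45 in siB/siM. SLC5A10 rose by 0.45 ± 0.082 and 0.46 ± 0.082, and SLC2A8 by 0.59 ± 0.11. In all, 2 sugar members were higher and 4 lower of 7 in siBCL11A, none higher and 4 lower of 4 in siMBNL1, and 3 higher and 3 lower of 8 in siB/siM, against the same shares of all genes.

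Members of the SLC25 family, all grouped here as mitochondrial carriers, were split. In siBCL11A 4 were called higher and 4 lower of 13, in siMBNL1 5 and 4 of 9, and in siB/siM 10 and 3 of 17. Of all genes 42.3% and 46.9%, 45.2% and 49.1%, and 51.3% and 35.5% were called. SLC25A15, the ornithine carrier of the urea cycle, stood at 4.23 and 4.86 RPKM in siNS, 6.42, 7.05 and 6.55 in siBCL11A, 6.41, 7.16 and 6.54 in siMBNL1, and 7.84, 8.41 and 8.22 in siB/siM and rose by 0.47 ± 0.070, 0.47 ± 0.070 and 0.72 ± 0.070. The calcium-regulated carriers of ATP-Mg and phosphate went apart. SLC25A25 stood at 6.41 and 6.34 RPKM in siNS, 9.32, 8.43 and 9.62 in siBCL11A, 8.51, 7.599 and 8.75 in siMBNL1, and 9.39, 9.74 and 9.74 in siB/siM and rose by 0.46, 0.33 and 0.53. SLC25A23 stood at 11.3 and 9.19 RPKM in siNS, 4.58, 5.89 and 5.303 in siBCL11A, 6.16, 5.71 and 4.4004 in siMBNL1, and 5.22, 5.71 and 4.52 in siB/siM and fell by 0.84, 0.81 and 0.87. SLC25A12, an aspartate and glutamate carrier of the malate shuttle, and SLC25A42, which carries coenzyme A, were lower in every knockdown, by 0.40 to 0.63. SLC25A13, the second aspartate and glutamate carrier, fell by 0.48 in siBCL11A. Of the most abundant carriers, SLC25A5 rose by 0.23 ± 0.062 in siMBNL1 and SLC25A3 by 0.24 ± 0.060 in siB/siM. Both of these small rises were lost when either siNS library was left out. That of SLC25A5 was also lost without siMBNL1 library 1 or 2 (limma, adjusted p = 0.0525 and 0.0726). That of SLC25A3 was lost without siB/siM library 1 or 3 (limma, adjusted p = 0.0515 and 0.0545), and under quantile normalization (adjusted p = 0.702).

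**Figure D3:**
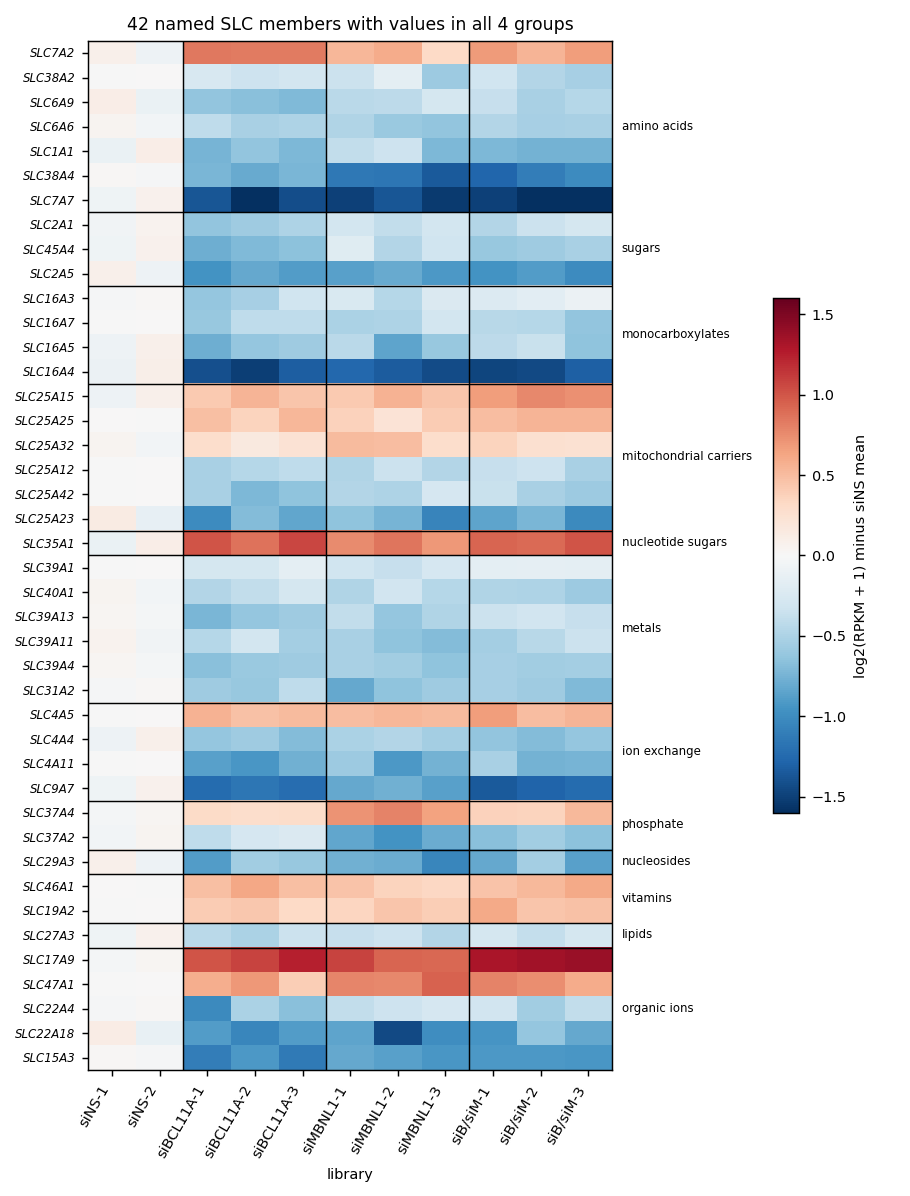
Log2(RPKM + 1) of the 42 members named in the text with values in all 4 groups, minus the mean of the 2 siNS libraries (colour), for each of 11 libraries (columns), with members in rows by substrate group. The 10 of them called higher and the 27 called lower in every knockdown form the red and blue rows, and colours within a group of libraries are close to each other. Most of these members were named for the size of their called changes or after their values were seen, so these numbers follow from that choice. All genes with values in all 4 groups were not counted in this way.

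Zinc transporters showed a similar split. Of the importers, SLC39A13, SLC39A4, SLC39A11 and SLC39A1 were lower where called, and SLC39A10, SLC39A14, SLC39A3, SLC39A6 and SLC39A8 higher. Without 1 or the other siNS library, the calls of SLC39A1 in siBCL11A, of SLC39A13 and SLC39A6 in siB/siM and of SLC39A8 in siMBNL1 were lost. The SLC39A6 call was also lost without any 1 of the siB/siM libraries (limma, adjusted p from 0.0825 to 0.102). The SLC39A8 call was also lost without siMBNL1 library 1 or 2 (limma, adjusted p = 0.0613 and 0.0818). Quantile normalization ended the siB/siM calls of SLC39A6 and SLC39A14, at differences of 0.046 and 0.165 (adjusted p = 1 and 0.0758). SLC39A13, a zinc transporter of the early secretory pathway, stood at 14.9 and 14.1 RPKM in siNS, 8.34, 9.12 and 9.46 in siBCL11A, 10.8, 9.07 and 10.1 in siMBNL1, and 11.2, 11.5 and 11.04 in siB/siM. SLC39A10, a plasma membrane importer, stood at 13.3 and 13.3 RPKM in siNS, 19.2, 18.3 and 17.95 in siBCL11A, and 15.3, 15.1 and 14.9 in siB/siM. SLC39A13 fell by 0.64 ± 0.074 in siBCL11A, and SLC39A10 rose by 0.45 ± 0.056. In siB/siM the difference of SLC39A10 was 0.17 ± 0.056 (limma, adjusted p = 0.0521). SLC39A3, another plasma membrane importer, stood at 4.64 and 5.14 RPKM in siNS and 6.45, 6.67 and 6.82 in siB/siM and rose by 0.38 ± 0.067. SLC31A2, a copper transporter homologue, stood at 21.2 and 21.6 RPKM in siNS, 14.1, 13.7 and 15.97 in siBCL11A, 11.8, 13.3 and 14.1 in siMBNL1, and 14.5, 14.1 and 12.8 in siB/siM, and it fell by 0.53, 0.68 and 0.60. The iron exporter SLC40A1 fell by 0.38, 0.41 and 0.52. SLC41A2, a magnesium transporter, stood at 5.52 and 5.95 RPKM in siNS and 7.703, 8.4004 and 7.53 in siMBNL1 and rose by 0.40 ± 0.071, a call lost without siNS library 1 (adjusted p = 0.0527). Of 17 metal transporters, 4 were called higher and 7 lower of 11 in siBCL11A, 2 and 8 of 11 in siMBNL1, and 4 and 5 of 11 in siB/siM, beside 42.3% and 46.9%, 45.2% and 49.1%, and 51.3% and 35.5% of all genes.

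Ion exchangers and chloride cotransporters held a gene that fell strongly in siBCL11A and siB/siM and less in siMBNL1. SLC9A7, a sodium and proton exchanger of the trans-Golgi network, stood at 27.4 and 30.2 RPKM in siNS, 11.7, 12.3 and 11.7 in siBCL11A, 15.9, 16.5 and 15.3 in siMBNL1, and 10.7, 11.2 and 11.7 in siB/siM. The siMBNL1 libraries lay between siNS and the other knockdowns, and no groups overlapped except siBCL11A and siB/siM. The log2 difference was -1.21 ± 0.063, -0.82 ± 0.063 and -1.29 ± 0.063 (limma, adjusted p = 1e-07, 2.51e-06 and 6.65e-08).

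Bicarbonate and related carriers of the SLC4 family were mostly lower. SLC4A11 stood at 4.44 and 4.501 RPKM in siNS, 2.004, 1.86 and 2.21 in siBCL11A, 2.65, 1.89 and 2.24 in siMBNL1, and 2.83, 2.23 and 2.27 in siB/siM and fell by 0.86, 0.75 and 0.67. SLC4A4, a sodium bicarbonate cotransporter, fell by 0.63, 0.51 and 0.65. SLC4A7, a bicarbonate importer known in breast tissue, stood at 11.3 and 10.7 RPKM in siNS, 6.57, 6.58 and 6.62 in siBCL11A, and 8.603, 7.69 and 7.83 in siB/siM and fell by 0.66 and 0.41. SLC4A5, another sodium bicarbonate cotransporter, went up, at 1.69 and 1.696 RPKM in siNS, 2.94, 2.71 and 2.82 in siBCL11A, 2.795, 2.88 and 2.81 in siMBNL1, and 3.29, 2.77 and 2.92 in siB/siM, with rises of 0.51, 0.51 and 0.57. In this group of 16 members, 3 were called higher and 9 lower of 12 in siBCL11A, 3 and 8 of 11 in siMBNL1, and 4 and 7 of 13 in siB/siM, against 42.3% and 46.9%, 45.2% and 49.1%, and 51.3% and 35.5% of all genes.

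Phosphate and sugar-phosphate carriers held the member with the largest difference between the single knockdowns on the log2(RPKM + 1) scale, SLC37A1. SLC37A4 brings glucose-6-phosphate into the endoplasmic reticulum for glucose release. It stood at 13.8 and 14.5 RPKM in siNS, 17.7, 17.5 and 17.5 in siBCL11A, 23.9, 25.2 and 22.8 in siMBNL1, and 18.6, 18.4 and 20.7 in siB/siM, highest in siMBNL1, and rose by 0.29 ± 0.065, 0.72 ± 0.065 and 0.42 ± 0.065. The siBCL11A rise was not called without siNS library 1 (adjusted p = 0.0666). SLC37A2, whose exon was more included in siBCL11A, stood at 65.1 and 68.9 RPKM in siNS, 50.2, 55.6 and 56.8 in siBCL11A, 37.2, 34.2 and 38.1 in siMBNL1, and 41.8, 45.2 and 42.3 in siB/siM. Its level was lowest in siMBNL1, and it fell by 0.30 ± 0.072, 0.86 ± 0.072 and 0.62 ± 0.072, the first not called without siNS library 2 (adjusted p = 0.0938). SLC37A1, a phosphate-linked glucose-6-phosphate antiporter, stood at 4.28 and 4.96 RPKM in siNS, 2.898, 3.18 and 3.95 in siBCL11A, and 6.23, 6.59 and 6.395 in siMBNL1. It was low in siBCL11A and high in siMBNL1, with calls of -0.38 ± 0.098 and 0.40 ± 0.098 (limma, adjusted p = 0.0177 and 0.0144). The first call was lost without siNS library 2, or without siBCL11A library 1 or 2 (adjusted p from 0.0554 to 0.206), and the second without siNS library 1 (adjusted p = 0.174). SLC20A2, a sodium phosphate cotransporter of the plasma membrane, stood at 5.67 and 5.42 RPKM in siNS, 8.22, 9.42 and 8.69 in siBCL11A, and 8.05, 8.66 and 8.498 in siB/siM and rose by 0.58 ± 0.068 and 0.52 ± 0.068.

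Vitamin, choline and heme transporters were higher with 1 exception. In siBCL11A 3 were called higher and 1 lower of 4, in siMBNL1 3 of 3 were higher, and in siB/siM 6 were higher and 1 lower of 7. Of all genes 42.3%, 45.2% and 51.3% were called higher. SLC44A2, a choline transporter of the plasma membrane and mitochondria, stood at 39.4 and 39.6 RPKM in siNS, 67.7, 71.96 and 68.4 in siBCL11A, and 59.8, 63.2 and 63.3 in siB/siM and rose by 0.80 ± 0.059 and 0.64 ± 0.059. SLC46A1, the proton-coupled folate importer, rose by 0.53, 0.38 and 0.53. SLC19A2, a thiamine importer, stood at 4.36 and 4.44 RPKM in siNS, 6.15, 6.31 and 5.75 in siBCL11A, 5.85, 6.36 and 6.102 in siMBNL1, and 7.22, 6.34 and 6.503 in siB/siM and rose by 0.39, 0.39 and 0.51. SLC5A6, which imports biotin and pantothenate, stood at 19.2 and 20.8 RPKM in siNS, 24.4, 22.8 and 24.8 in siMBNL1, and 25.6, 25.2 and 24.4 in siB/siM, with rises of 0.25 ± 0.064 and 0.31 ± 0.064 that were not called without siNS library 1 (adjusted p = 0.219 and 0.0624). The first was also not called without siMBNL1 library 1 or 3 (limma, adjusted p = 0.0587 and 0.0543), and the second under quantile normalization (adjusted p = 0.15). SLC52A2, a riboflavin importer, and SLC48A1, a heme transporter, rose in siB/siM by 0.47 and 0.37. The exception was the lysosomal SLC46A3, at 1.79 and 1.65 RPKM in siNS, 0.887, 1.03 and 1.19 in siBCL11A, and 1.26, 1.05 and 1.14 in siB/siM, which fell by 0.42 and 0.34. Without siNS library 1 its siB/siM call was lost (adjusted p = 0.0766).

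Carriers of organic ions, peptides and vesicle contents held the largest rise on the log2(RPKM + 1) scale. SLC17A9, which loads nucleotides such as ATP into secretory vesicles, stood at 7.28 and 7.68 RPKM in siNS, 15.995, 16.97 and 19.2 in siBCL11A, 16.9, 15.2 and 15.02 in siMBNL1, and 20.1, 20.6 and 21.1 in siB/siM. No knockdown library was below 15.02 RPKM, and siB/siM was highest. The log2 difference was 1.11 ± 0.077, 0.98 ± 0.077 and 1.35 ± 0.077 (limma, adjusted p = 7.73e-07, 3.1e-06 and 1.97e-07). SLC47A1 stood at 0.675 and 0.678 RPKM in siNS, 1.51, 1.703 and 1.203 in siBCL11A, 1.89, 1.86 and 2.23 in siMBNL1, and 1.903, 1.81 and 1.53 in siB/siM, a rise from under 1 RPKM of 0.55, 0.83 and 0.71. By the ratio of mean RPKM, SLC47A1 rose 2.18-fold, 2.95-fold and 2.58-fold and SLC17A9 2.32-fold, 2.099-fold and 2.75-fold, so SLC47A1 rose more in siMBNL1. SLC15A3, a lysosomal carrier of histidine and small peptides, stood at 8.68 and 8.44 RPKM in siNS, 3.45, 4.05 and 3.37 in siBCL11A, 4.43, 4.22 and 4.03 in siMBNL1, and 4.03, 4.05 and 4.02 in siB/siM. It fell by 1.05 ± 0.068, 0.87 ± 0.068 and 0.93 ± 0.068. SLC22A18 stood at 4.27 and 3.497 RPKM in siNS, 1.63, 1.36 and 1.62 in siBCL11A, 1.701, 0.782 and 1.45 in siMBNL1, and 1.53, 2.18 and 1.77 in siB/siM and fell by 0.94 ± 0.15, 1.10 ± 0.15 and 0.79 ± 0.15. SLC22A4, an ergothioneine importer, stood at 4.699 and 4.898 RPKM in siNS, 1.87, 3.09 and 2.64 in siBCL11A, 3.42, 3.595 and 3.81 in siMBNL1, and 3.69, 2.93 and 3.42 in siB/siM and fell by 0.73 ± 0.12 in siBCL11A. Its siB/siM call was lost without either siNS library or siB/siM library 2 (adjusted p from 0.0828 to 0.136). The carnitine importer SLC22A5 rose by 0.51 ± 0.065 in siB/siM.

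The remaining groups were small. SLC35A1, which brings CMP-sialic acid into the Golgi, stood at 2.1995 and 2.72 RPKM in siNS, 5.96, 5.29 and 6.22 in siBCL11A, 4.81, 5.23 and 4.605 in siMBNL1, and 5.596, 5.47 and 5.94 in siB/siM. It rose by 0.98 ± 0.082, 0.77 ± 0.082 and 0.95 ± 0.082, with every knockdown library above 4.6 RPKM. SLC29A3, a nucleoside carrier of lysosomes, stood at 4.39 and 3.82 RPKM in siNS, 1.75, 2.46 and 2.36 in siBCL11A, 1.99, 1.93 and 1.47 in siMBNL1, and 1.897, 2.502 and 1.795 in siB/siM and fell by 0.68 ± 0.12, 0.87 ± 0.12 and 0.74 ± 0.12. Of the SLC27 fatty acid transport proteins, SLC27A3 stood at 1.59 and 1.86 RPKM in siNS, 1.02, 0.913 and 1.14 in siBCL11A, 1.11, 1.17 and 0.963 in siMBNL1, and 1.25, 1.09 and 1.23 in siB/siM and fell by 0.43, 0.39 and 0.32, the last not called without siNS library 2 (adjusted p = 0.0865). SLC27A4, at 29.2 and 29.5 RPKM in siNS and 22.96, 24.8 and 25.9 in siBCL11A, was called lower by 0.25 ± 0.071 in siBCL11A, a call lost when any 1 of 4 libraries was left out (adjusted p from 0.0909 to 0.207), and SLC27A1, at 2.42 and 2.78 RPKM in siNS, 1.66, 2.21 and 2.16 in siBCL11A, and 2.25, 1.81 and 1.92 in siMBNL1, was not called.

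The immune markers CD14, CSF1R and CD68 were called lower in every knockdown, with medians of -1.17, -0.71 and -1.07 in siBCL11A, siMBNL1 and siB/siM. PTPRC, which marks all white blood cells, had no values, which does not show that its RNA was absent. The fibroblast genes PDGFRB and COL1A1, at a summed 4.61 to 5.28 RPKM in siNS, were also called lower in each. Whether these genes have a part in the transporters' fall was not tested, and in bulk RNA fewer cells of a kind and less RNA per cell cannot be told apart.

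Setting the single knockdowns against each other took the siNS values out of the difference. A member still entered only if it had passed the authors' test against the same 2 siNS libraries in both knockdowns. Members listed for only 1 of them, such as SLC3A2, SLC7A1 and SLC44A2, could not be compared. Of 51 members with values in both, 6 were higher (11.8%) and 10 lower (19.6%) in siBCL11A than in siMBNL1, where 14.2% and 19.8% of all genes were (16 members either way, beside 34.1% of genes). Adjusted over 23227 genes, 5 were higher and 5 lower. In 18 of the 51 the RPKM ranges of both groups were apart, a count that was not made over all genes. Among the phosphate carriers the differences ran both ways: SLC37A1 was 0.78 ± 0.087 lower in siBCL11A, SLC37A4 0.43 ± 0.058 lower and SLC37A2 0.56 ± 0.064 higher (limma, adjusted p = 9.32e-05, 0.000154 and 4.25e-05). SLC30A6, a zinc transporter of the Golgi, stood at 9.32 and 8.81 RPKM in siNS, 12.4, 11.4 and 12.1 in siBCL11A, and 8.01, 7.69 and 6.61 in siMBNL1. It was high in siBCL11A and low in siMBNL1, a difference of 0.62 ± 0.071 (limma, adjusted p = 9.84e-05). Against siNS its calls were 0.37 ± 0.079 and -0.26 ± 0.079, the first lost without siNS library 2 (adjusted p = 0.0683) and the second without either siNS library or siMBNL1 library 2 or 3 (adjusted p from 0.0636 to 0.332). SLC38A4 and SLC7A2 were higher in siBCL11A than in siMBNL1 by 0.46 and 0.36. SLC22A4, SLC9A7 and SLC45A4 were lower by 0.40, 0.39 and 0.38. No member in these comparisons differed by 1 or more on the log2 scale.

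Among members with values in both groups, few separated the double from the single knockdowns. Each pool was given at 50 nM in siB/siM and at 100 nM in its single knockdown. In the comparisons with either single knockdown, the added pool and the lower dose of the other therefore cannot be told apart. Against siBCL11A, 5 of 66 members were higher in siB/siM (7.58%) and 4 lower (6.06%), where 8.45% and 1.66% of all genes were (9 members either way, beside 10.1% of genes). With p-values adjusted over 23227 genes, the family used against siNS, none of these 9 was called (limma, adjusted p from 0.0603 to 0.183). SLC38A4 and SLC37A2, both lowest in siMBNL1, were lower in siB/siM than in siBCL11A by 0.37 ± 0.074 and 0.32 ± 0.064, and SLC39A10 and SLC7A1 by 0.27 ± 0.050 and 0.25 ± 0.059. The call of SLC37A2 was lost without siBCL11A library 2 (adjusted p = 0.0542) and that of SLC7A1 when any 1 of 5 libraries was left out (adjusted p from 0.0533 to 0.104). SLC16A3, SLC39A13, SLC25A15, SLC4A7 and SLC3A2 were higher by 0.33, 0.30, 0.26, 0.25 and 0.22 (limma, adjusted p from 0.0177 to 0.0356). None of these 5 rises was called in every fit that left out 1 library: without siBCL11A library 1, or without siB/siM library 2, 0 members were called higher, and with all libraries 13 were higher at an unadjusted limma p under 0.05. Same-numbered libraries of these 2 groups deviated together, but the calls above used no replicate term. With the replicate number as a block in a fit of these 2 groups 9 members were called higher and 6 lower. Under quantile normalization the counts were 1 higher and 7 lower.

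Against siMBNL1, 6 of 55 members were higher in siB/siM (10.9%) and 3 lower (5.45%), beside 15.4% and 9.93% of all genes (9 members either way, beside 25.3%). Adjusted over 23227 genes, 1 was higher and 2 lower. SLC9A7 was 0.47 ± 0.056 lower and SLC37A4 0.30 ± 0.058 lower (limma, adjusted p = 0.000108 and 0.00296), and SLC45A4 0.24 ± 0.072 lower. SLC17A9 was 0.37 ± 0.069 higher (limma, adjusted p = 0.00251). SLC25A15, SLC37A2 and SLC25A25 were higher by 0.25, 0.23 and 0.20, and SLC39A1, chosen after its values were seen, by 0.17. Without siB/siM library 2 only SLC17A9 was still called higher, SLC37A2, SLC25A25 and SLC39A1 also lost their calls without other single libraries (adjusted p from 0.0548 to 0.127), and SLC45A4 was not called lower when any 1 of 5 libraries was left out (adjusted p from 0.0543 to 0.112). Quantile normalization moved the median of all genes in this comparison by -0.14 and gave 1 member higher and 11 lower. The siB/siM means of SLC37A2, SLC37A4 and SLC38A4 lay between those of the single knockdowns, and that of SLC9A7 was close to siBCL11A.

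**Figure D4:**
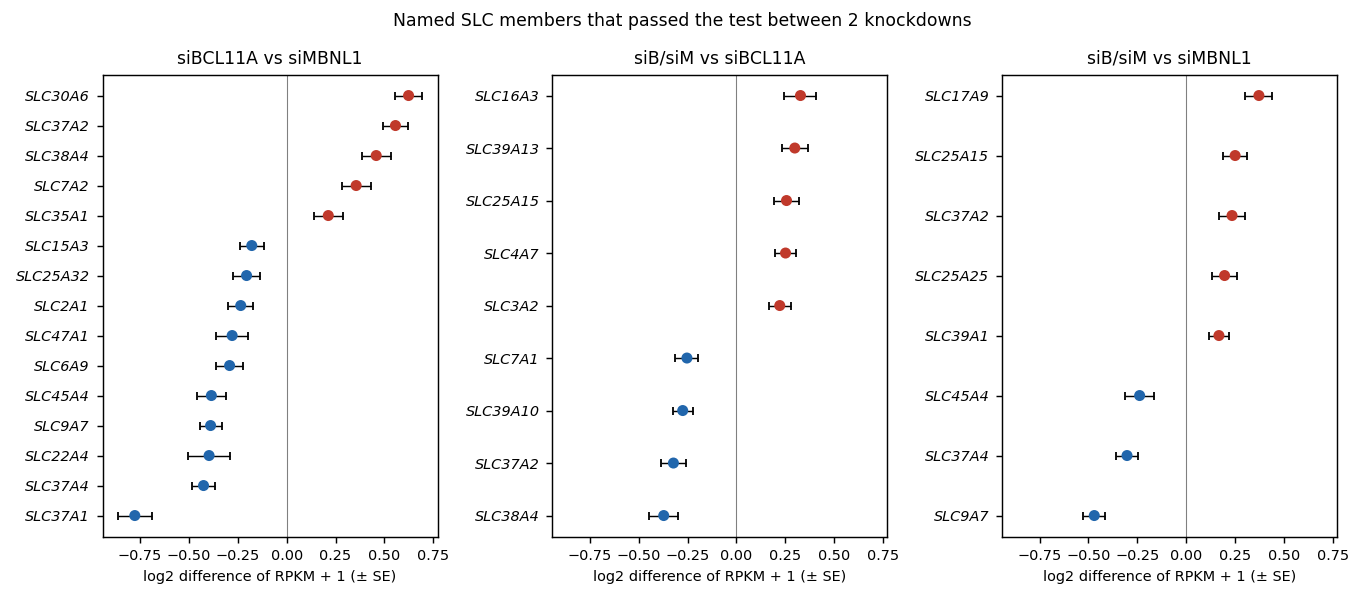
Log2 difference of RPKM + 1 with SE (x axis) of the named SLC members called between 2 knockdowns, 1 panel per comparison; positive values (red) are higher in the group named first. SLC37A1 at -0.78 and SLC30A6 at 0.62 are the outermost points of siBCL11A against siMBNL1.

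Genes that partner or regulate SLC transporters were taken from a list of 19, of which 16 were in the table. Of those with values, 6 were called higher and 6 lower of 13 in siBCL11A, 6 and 3 of 9 in siMBNL1, and 7 and 5 of 13 in siB/siM. These counts stood beside 42.3% higher and 46.9% lower of all genes in siBCL11A, 45.2% and 49.1% in siMBNL1, and 51.3% and 35.5% in siB/siM. The scaffold SLC9A3R2, which anchors the SLC9A3 exchanger and other membrane proteins, fell by 0.74 ± 0.14, 1.79 ± 0.14 and 0.73 ± 0.14. ARRDC3, an adaptor that guides membrane proteins to degradation, rose by 1.08 ± 0.062, 0.26 ± 0.062 and 0.95 ± 0.062. NEDD4L, a ubiquitin ligase of ion channels and transporters, rose by 0.70 ± 0.054 in siBCL11A and 0.53 ± 0.054 in siB/siM. BSG, the chaperone of SLC16A3, fell by 0.28 ± 0.078 in siBCL11A.

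The transcription factor ATF4 raises amino acid transporters when amino acids run short. ATF4 RNA rose by 0.91 ± 0.055 in siBCL11A, 0.28 ± 0.055 in siMBNL1 and 0.89 ± 0.055 in siB/siM. Of 17 genes of its pathway, 14 were in the table, with 7 called higher and 3 lower of 10 in siBCL11A, 3 and 5 of 8 in siMBNL1, and 9 and 2 of 11 in siB/siM. All genes were called at 42.3% and 46.9%, 45.2% and 49.1%, and 51.3% and 35.5%. MTHFD2, an enzyme of mitochondrial folate metabolism, rose by 0.68, 0.62 and 0.78, and NUPR1, a stress-induced chromatin protein, fell by 0.94 in siMBNL1. DDIT4, an inhibitor of mTORC1 signalling, went the other way from ATF4 and fell by 0.89, 0.32 and 0.72. Of 8 transporters known to respond to ATF4, 7 were in the table, and they did not move as 1 group: 3 were called higher and 2 lower of 6 in siBCL11A, none and 2 of 3 in siMBNL1, and 4 and 3 of 7 in siB/siM. SLC7A1, SLC7A5 and SLC3A2 were the higher ones in siBCL11A, joined by SLC1A4 at 0.45 in siB/siM, and SLC7A11 and SLC6A9 were lower in both.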

How the data were processed

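Total RNA libraries were made with a stranded kit after removal of ribosomal RNA, per the labels' protocols, and hg19 is the genome build in the submitters' processing notes. Which programs aligned reads, counted them and called exons is not given in the sources used here. Per library, the authors deposited RPKM values, with their log2 fold changes, p-values and adjusted p-values, for genes that had passed their test against siNS. The authors' deposited lists for siBCL11A give a ratio (fold change), which was not used for tests. Exon inclusion was deposited as a fraction with 1 value per group. Every listed gene had a mean of at least 1.001 RPKM in its highest group.

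Differences were tested with limma 3.58.1 in R 4.3.3 on log2(RPKM + 1), with 1 mean per group, no batch term, no trend and no robust option. The prior had 4.83 degrees of freedom. Against siNS, p-values were adjusted over 23227 genes, the size implied by the authors' own adjusted p-values, with unlisted genes counted as not passing. Between knockdowns they were adjusted over the genes with values in both groups. The fit was tested on simulated data. Library sizes were worked out from short RNAs of known length, of which 66.7% to 86.7% gave whole read numbers within 0.05 reads. They limit precision for members under 5 RPKM most.

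Groups and replicate numbers came from the sample titles, which do not say what a number shares. Deviations from the group means correlated in same-numbered libraries of siBCL11A and siB/siM (r = 0.33, 0.195 and 0.185 over 3149 genes), so a replicate block was run as an alternative. The main test used no such term. In every other combination of groups at least 1 same-numbered pair had a negative r. Some libraries with different numbers correlated as strongly. The r was 0.369 for siBCL11A library 1 with siMBNL1 library 2, and 0.337 for siMBNL1 library 2 with siB/siM library 1. Whether a number marks a true pair is thus not known. Members, substrate groups and gene lists were chosen with earlier results of these data known. Members named with values were the 8 largest called changes per direction against siNS, the 5 largest per direction between knockdowns, those in an exon list, and the largest rise and fall of each substrate group with at least 3 measured members. A few members that met this rule are not reported here, though counts over all members include them. Others were named for their substrate after their values were seen. Alternatives were another pseudocount, floor, scaling, moderation, set of samples, adjustment family, a replicate block and leaving out each library.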

Additional observations from a re-analysis of the deposited data

How the results depend on the processing

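No called difference of a member changed sign under any alternative run. Of the uncalled differences, 1 of 28 against siNS did: that of SLC25A5 in siB/siM became -0.000804 on the log2 scale under quantile normalization. Of 138 uncalled differences between knockdowns, 50 changed sign under at least 1 alternative. For the called differences and those against siNS, the side of the threshold and the sign were kept in 3402 alternative values, while 68 gained a call and 269 lost one. With only members of at least 5 RPKM, which by construction tests fewer genes, the counts of lower members were 23 in siBCL11A, 18 in siMBNL1, 16 in siB/siM and 6 for siBCL11A against siMBNL1. With p-values adjusted over 23227 genes also between knockdowns, 5 members were lower for siBCL11A against siMBNL1, 0 higher and 0 lower for siB/siM against siBCL11A (13 and 7 at an unadjusted limma p under 0.05), and 1 higher for siB/siM against siMBNL1. Quantile normalization gave 1 higher and 7 lower for siB/siM against siBCL11A and 1 higher and 11 lower against siMBNL1. Median centring gave 3 higher for siB/siM against siBCL11A. The cause of these shifts was not tested.

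Leaving out 1 library gave 23 to 25 higher and 40 to 46 lower members in siBCL11A, 13 to 19 and 30 to 42 in siMBNL1, and 32 to 36 and 33 to 38 in siB/siM. Between knockdowns it gave 5 to 6 higher and 8 to 12 lower for siBCL11A against siMBNL1, 0 to 5 and 2 to 4 for siB/siM against siBCL11A, and 1 to 6 and 2 to 4 for siB/siM against siMBNL1. Where 1 siNS library was left, it was assumed to vary like the other groups. The replicate block in the fit of all groups gave 5 higher and 4 lower members for siB/siM against siBCL11A. In a fit of these 2 groups alone, an alternative chosen after seeing the data, the block gave 9 higher and 6 lower. It moved no other count by over 1.5 times. With a difference in inclusion of at least 0.2, the exon lists held 0 members.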

Other observations

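Transporter genes named outside the pattern used here were also in the table. Of 13 SLC35 genes with other letters, mostly nucleotide sugar carriers of the Golgi and endoplasmic reticulum or their relatives, 2 were called higher and 7 lower of 10 with values in siBCL11A, 2 and 7 of 10 in siMBNL1, and 2 and 5 of 7 in siB/siM. Of 3 SLCO genes, none was called higher and 2 lower in siBCL11A, 2 and 1 in siMBNL1, and 1 and 2 in siB/siM. All genes with values were called higher and lower at 42.3% and 46.9%, 45.2% and 49.1%, and 51.3% and 35.5%. SLCO4A1, a carrier of thyroid hormones and other organic anions, differed between the single knockdowns more than any of the 16 members called there. Its log2 difference from siNS was -1.002 ± 0.084 in siBCL11A, 0.51 ± 0.084 in siMBNL1 and -0.83 ± 0.084 in siB/siM, and siBCL11A was lower than siMBNL1 by 1.51 ± 0.075 (limma, adjusted p = 6.48e-08). It was chosen after its values were seen. An exon of SLC29A1, a nucleoside carrier that is no member because the table did not list its RNA, was in the authors' list for siB/siM, with an inclusion of 0.969 in siNS and 0.733 in siB/siM and no spread between libraries.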
